A study of Mus musculus with 7 samples.

Results

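The 10 genes described here, which restrain the cell cycle, were followed in cells of the embryonic mouse cerebral cortex after knockdown of Trnp1. They were chosen by name: the cyclin-dependent kinase (CDK) inhibitors Cdkn1a, Cdkn1b, Cdkn1c, Cdkn2c and Cdkn2d, the pocket proteins Rb1, Rbl1 and Rbl2, and the antiproliferative factors Tob1 and Btg1. Each was represented by the probe set that names that gene alone, the one with the highest mean over all 7 arrays where there were several, which gave 9 measured genes of the 10, among 19938 genes in all. Cdkn1a is left out of the results, because its single probe set also names another gene.

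A cell leaves the division cycle when its CDKs are held inactive. The INK4 proteins, Cdkn2c and Cdkn2d among them, bind the kinases that pair with D-type cyclins, whereas the Cip/Kip proteins, Cdkn1a to Cdkn1c, bind cyclin-CDK complexes more widely. Active CDKs phosphorylate the pocket proteins and release E2F factors, which drive genes of DNA synthesis; unphosphorylated pocket proteins hold those genes silent. Tob1 and Btg1 belong to a family that recruits the CCR4-NOT deadenylase to messenger RNAs and slows proliferation. In the cortex, cell cycle exit accompanies the birth of neurons from radial glia and intermediate progenitors, and several of these inhibitors are known to be expressed as progenitors leave the cycle.

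All samples were C57BL/6 cortex at embryonic day 14, of undetermined sex, from cortices electroporated at embryonic day 13 with a construct that also carried green fluorescent protein (GFP), after which the GFP-positive cells were collected by flow cytometry 24 h later. The groups were controls (n = 4, genotype WT) and Trnp1 knockdown samples (n = 3), so GFP electroporation was common to both. What the control construct was, the sequences of the constructs and the number of animals per sample are not given in the sources used here. One Affymetrix gene array was run per sample, and levels are on the log2 scale, so that a difference of 1 is a doubling. In sorted bulk samples fewer cells of a type and less RNA per cell cannot be told apart, and p-values measure the spread between these samples.

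Trnp1 checked the labels, with 5.07, 4.999, 5.24 and 5.22 in control replicates 1 to 4 and 4.80, 4.85 and 4.55 in knockdown replicates 1 to 3, a difference of -0.40 (SE 0.12, adjusted p = 0.825 by limma). Its groups did not overlap, with every knockdown array below every control, which was so for 3.07% of all genes. The Trnp1 signal was dim (mean 4.96, percentile 51.4 of all genes) and stood at 75.8% of control, so the check of the labels is weak. Markers of cells other than cortical progenitors and neurons varied between arrays. The mean of 4 choroid plexus markers varied most, from 3.74 to 8.06 in controls and 3.77 to 6.62 in knockdown samples. It was highest in control replicate 4 and knockdown replicate 2 of their groups. The mean level of 6 endothelial markers lay between 4.29 and 6.92 in controls and between 5.39 and 7.53 in knockdown samples, with all 6 higher on average in knockdown, and control replicate 4 and knockdown replicate 1 were the highest in their groups. The mean of 5 microglial markers spanned 5.89 to 8.63 in controls and 6.74 to 7.99 in knockdown samples, and that of 6 interneuron markers 4.20 to 4.56 and 4.66 to 6.82. All 6 interneuron markers were higher on average in knockdown, and their mean in every knockdown array was above that in every control. Their median difference was 1.21, and 0.36 without knockdown replicate 2. The control values are near the array medians (4.40 to 4.61). Array values have no true zero, so the absence of a marker cannot be read from them. Defining markers of the labelled tissue were present: Eomes, of intermediate progenitors, Neurod6, of cortical neurons, and Fabp7, of radial glia, had mean levels of 10.3, 11.1 and 11.2 in controls.

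As a set, 8 of the 9 measured genes were lower in knockdown samples than in controls and 1, Btg1, was higher. Their median log2 difference was -0.55, against -0.001 over all genes, of which 50.2% were lower. Differences ranged from -0.81 for Cdkn2d to 0.06 for Btg1. By limma with adjustment over all genes, 0 of the 9 passed an adjusted p of 0.05 (0% of all genes did), with 0.769 as the smallest value. Unadjusted, 4 had a p under 0.05, all of them lower (Cdkn2d, Cdkn1b, Rb1 and Tob1), where 3.61% of all genes were lower and 2.2% higher. The same 4 genes had every knockdown array below every control array, which was so for 3.07% of all genes, and 0 of the 9 had every knockdown array above every control array (2.59% of all genes). Brighter genes were lower more often in these arrays: of the 2136 genes with a mean level over 8, 76.5% were lower, with a median of -0.16, and 7.63% had all knockdown arrays below all controls. Of these bright genes, 10.4% were lower at an unadjusted p under 0.05. Cdkn1b, Rb1, Tob1 and Btg1 have mean levels over 8. Among genes with mean levels of 6 to 8, where Cdkn2d lies, 7.33% were lower at an unadjusted p under 0.05. In that range 4.98% had all knockdown arrays below all controls. The genes were chosen with results of these data known, so these counts describe the set and do not test it.

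**Figure D1:**
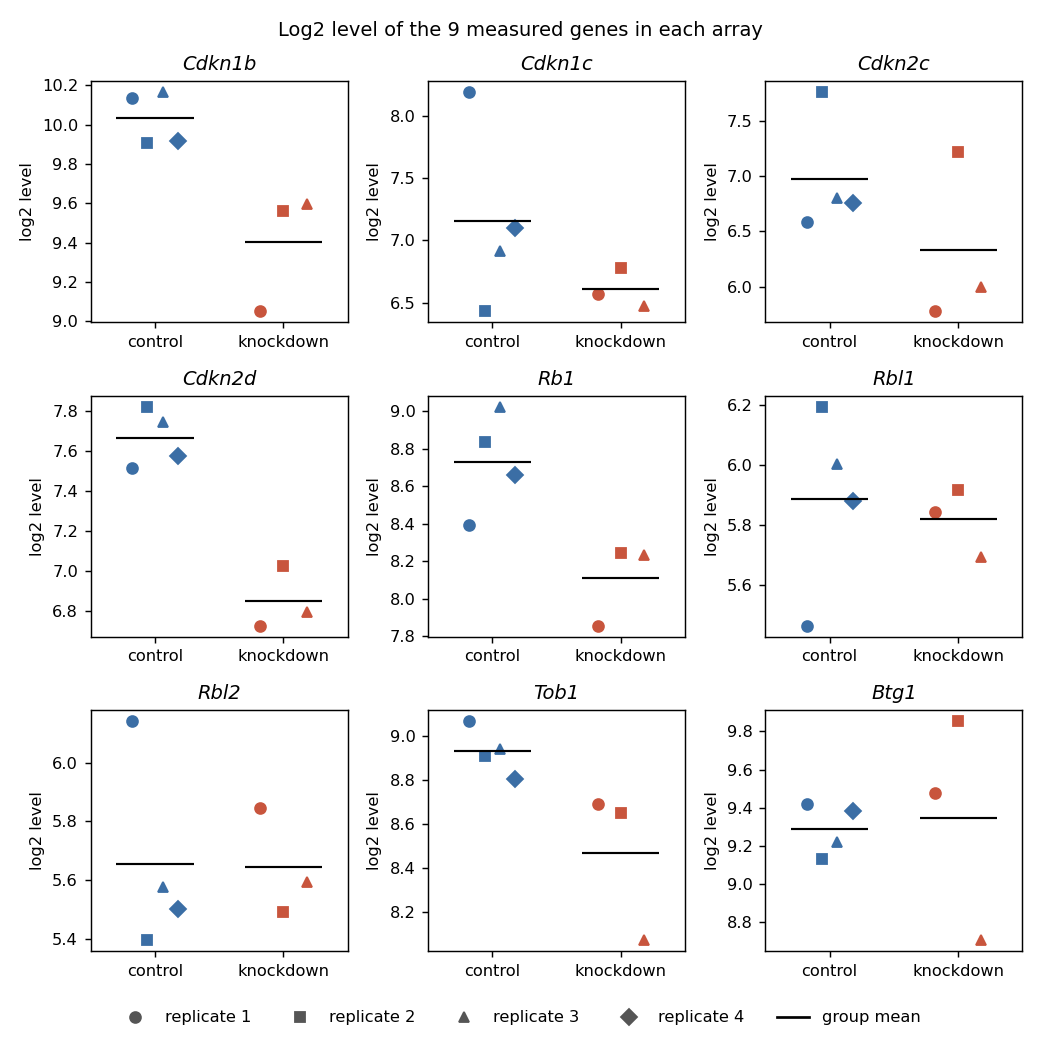
Log2 level (y axis, own scale per panel) of each of the 9 measured genes in the 4 control arrays (blue) and 3 knockdown arrays (red); symbols give the replicate number and bars the group mean. The groups are apart for Cdkn2d, Cdkn1b, Rb1 and Tob1 and overlap for the other 5 genes.

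Knockdown replicate 2 was the mildest of the 3 knockdown arrays for this set. It was the highest knockdown array for 6 of the 9 genes, with a median of -0.28 from the control mean, compared with -0.59 for both other knockdown arrays. Knockdown replicate 3 had all 9 genes below the control mean, replicate 1 had 7 and replicate 2 had 6. Over all genes the medians of replicates 1 to 3 from the control mean were -0.004, -0.01 and -0.005.

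Cdkn2d, which encodes the INK4 inhibitor p19, had the largest and most even difference of the set. Control replicates 1 to 4 had log2 levels of 7.51, 7.82, 7.74 and 7.57, and knockdown replicates 1 to 3 had 6.73, 7.02 and 6.80. The lowest control was 0.49 above the highest knockdown array, more than the range within either group (0.31 in controls and 0.30 in knockdown samples). The difference of -0.81 (SE 0.13, 95% interval -1.11 to -0.51) puts the knockdown signal at 56.9% of control (46.2% to 70.0%). Cdkn2d ranked 8th of all genes by unadjusted p (0.000312), and its adjusted p by limma was 0.769. An exact permutation test (two-sided, with 35 possible splits) gave p = 0.0286, its smallest possible value. Groups that do not overlap nearly fix this unadjusted p, so here and for the other separated members it restates the separation. For members with overlapping groups the same test gave p between 0.229 (Cdkn2c) and 0.971 (Rbl2). With single arrays left out the difference stayed between -0.90 and -0.75.

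Cdkn2c, the related INK4 inhibitor p18, was below every control in 2 of the 3 knockdown arrays. Its levels were 6.59, 7.76, 6.80 and 6.76 in controls and 5.78, 7.22 and 5.99 in knockdown samples, so knockdown replicate 2 lay above 3 of the controls. The difference was -0.65 (SE 0.41, 95% interval -1.61 to 0.32), with an adjusted p of 0.825 by limma. Leaving out knockdown replicate 2 made it -1.09, leaving out knockdown replicate 1 -0.37 and leaving out control replicate 2 -0.39. The mean level of 21 G2 and M phase genes was likewise highest in replicate 2 among the knockdown arrays, at 7.96, 8.85, 8.95 and 8.32 in controls and 7.28, 8.72 and 7.90 in knockdown samples, and its part in the values of Cdkn2c was not tested. Within each array the ratio of Cdkn2d to Cdkn2c, which an overall shift of an array leaves unchanged, differed by -0.17 between the groups (exact permutation p = 0.571, adjusted p = 0.714 over the 5 pairs compared). The groups overlapped for this ratio, which differed by 0.19 without knockdown replicate 2.

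The start of Cdkn2d carries several GC boxes, motifs bound by Sp/KLF factors, and a CCAAT box, shown here because this gene had the largest difference. Windows of 250 bases before to 50 after the start of transcription, from RefSeq (build GRCm38.p6), were used for 7 of the measured genes (8 windows), and those of Cdkn1c and Rb1 were not analysed here. Matches were exact and on both strands, with positions counted from the start, and capitals mark the match named for each stretch of 30 bases of the minus strand. The first stretch is chr9:21291310-21291339, with GGGCGG at position -118 in capitals and a further GGGCGG, at position -106, as its last letters in lower case. The second stretch is chr9:21291412-21291441, with the reverse complement of CCAAT at position -220.
Cdkn2d GC box: caagggcgctctGGGCGGggcctggggcgg
Cdkn2d CCAAT box: caacgcgtgctgATTGGctgttattcccag
GGGCGG was found in 7 of the 8 windows, 5 times in that of Cdkn2d, and in 35.7% of the 32851 windows of all genes. The 8 windows were mostly richer in G and C than the median window (52.7%). They ran from 44.0% to 75.3%, with 66.3% for Cdkn2d, and the comparison makes no allowance for this. CCAAT was found in 5 of the 8 windows and in 37.4% of all.

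Cdkn1b, the Cip/Kip inhibitor p27, was separated between the groups on the probe set used. Controls had levels of 10.13, 9.91, 10.17 and 9.92, and knockdown arrays had 9.05, 9.56 and 9.59. Knockdown replicate 1 was the lowest, and the gap between the groups was 0.32. The difference was -0.63 (SE 0.16, 95% interval -1.01 to -0.25), or 64.6% of the control signal (49.5% to 84.2%), with an adjusted p of 0.825 by limma and p = 0.0286 in the exact permutation test. A further probe set names Cdkn1b alone, with 9.51, 9.63, 9.57 and 9.38 in controls and 9.24, 9.42 and 8.60 in knockdown samples. That probe set was also lower on average (-0.44, SE 0.20, 95% interval -0.90 to 0.03), but knockdown replicate 2 lay above control replicate 4, and its lowest array was replicate 3 instead of replicate 1. The mean over both probe sets differed by -0.53. The groups of Cdkn1b overlapped after cyclic loess normalization (-0.50).

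The bases before the start of Cdkn1b are shown whole, at chr6:134920151-134920400 on the plus strand, as those of a gene whose groups were apart. Capitals mark a GC box at position -61 and CCAAT boxes at positions -161 and -35.
Cdkn1b: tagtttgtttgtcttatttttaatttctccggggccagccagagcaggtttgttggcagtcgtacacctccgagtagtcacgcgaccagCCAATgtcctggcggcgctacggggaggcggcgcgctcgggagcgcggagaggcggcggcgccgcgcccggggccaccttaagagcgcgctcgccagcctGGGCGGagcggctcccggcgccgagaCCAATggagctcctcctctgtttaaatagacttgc
The forkhead motif GTAAACA, searched because FOXO factors are known regulators of Cdkn1b, was not among these letters, and 3.65% of all windows hold it. Only this exact form was searched, so other forkhead-type letters are not covered. The window of Cdkn1b had 30 CpG dinucleotides, at percentile 88.3 of all windows.

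Cdkn1c, the imprinted Cip/Kip inhibitor p57, had the widest spread among controls of the set. Control levels were 8.19, 6.43, 6.91 and 7.10, and knockdown levels were 6.57, 6.78 and 6.47. Control replicate 1 stood above the rest, the controls had an SD of 0.743 against 0.155 in knockdown samples, and the groups overlapped. The difference was -0.55 (SE 0.38, 95% interval -1.44 to 0.33, adjusted p = 0.827 by limma), and -0.21 without control replicate 1. The ratio of Cdkn1b to Cdkn1c within arrays differed by -0.08 (exact permutation p = 0.886, adjusted p = 0.886), and its sign depended on single arrays.

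Rb1, the retinoblastoma pocket protein that binds the activating E2F factors, had log2 levels of 8.39, 8.84, 9.03 and 8.66 in controls and 7.86, 8.25 and 8.23 in knockdown samples. The groups were apart by 0.15, with control replicate 1 the nearest to the knockdown arrays. The difference was -0.62 (SE 0.18, 95% interval -1.04 to -0.19), or 65.2% of the control signal. The adjusted p was 0.825 by limma, and the exact permutation test gave p = 0.0571. After cyclic loess normalization the difference was -0.49 and the groups overlapped.

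The related pocket proteins Rbl1 (p107) and Rbl2 (p130), which bind the repressive E2F factors, had differences close to 0. Rbl1 had 5.46, 6.20, 6.00 and 5.88 in controls and 5.84, 5.92 and 5.69 in knockdown samples, with every knockdown array inside the control range. Its difference was -0.07 (SE 0.18, 95% interval -0.49 to 0.36). Rbl2, the pocket protein of resting cells, had 6.14, 5.39, 5.58 and 5.50 in controls and 5.85, 5.49 and 5.59 in knockdown samples, again inside the control range, with a difference of -0.01 (SE 0.20, 95% interval -0.47 to 0.46). The intervals still include values nearly as low as that of Rb1, and the difference of each gene took both signs when single arrays were left out.

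The ratio of Rb1 to Rbl1 signal within arrays shows whether their differences were unequal. It sets a bright probe set against a dim one (mean levels 8.46 and 5.86), and in these arrays genes over 8 had a median difference of -0.16 and genes at 6 or less one of 0.03. On the log2 scale the ratio was 2.93, 2.64, 3.02 and 2.78 in controls and 2.01, 2.33 and 2.54 in knockdown samples, so that the groups did not overlap. The ratio differed by -0.55 between the groups (exact permutation p = 0.0286, the smallest possible, adjusted p = 0.0714 over the 5 pairs), which does not pass. With so few splits, a ratio at the smallest possible p cannot pass over the 5 pairs on its own. Not passing therefore says nothing against a difference. With quantile normalization repeated the ratio differed by -0.41 (adjusted p = 0.214), and with cyclic loess by -0.43 (adjusted p = 0.286). For Rb1 and Rbl2 the ratio differed by -0.61, with overlapping groups (exact permutation p = 0.171, adjusted p = 0.286).

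**Figure D2:**
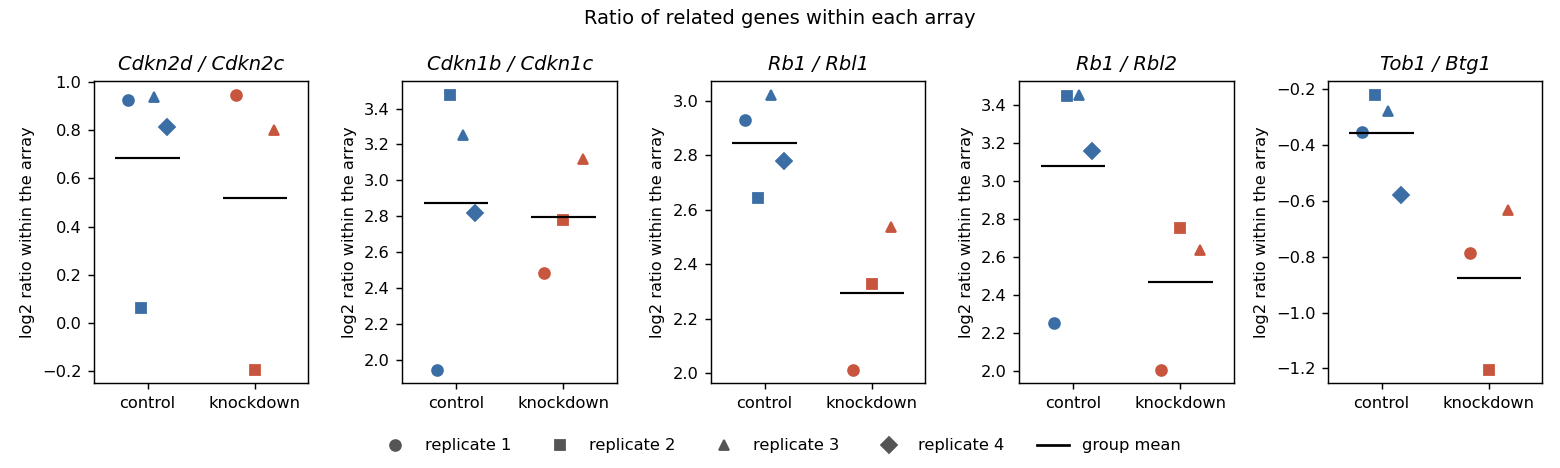
Log2 ratio of 2 related genes within each array (y axis, own scale per panel) for the 5 pairs, by group; symbols give the replicate number and bars the group mean. The groups are apart for Rb1 / Rbl1 and Tob1 / Btg1 and overlap for the other 3 pairs.

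Rbl1 is a known E2F target, and its window holds an E2F-type motif close to the start. The 30 bases are chr2:157204535-157204564 on the minus strand, with TTTCGCG at position -18 in capitals.
Rbl1 E2F-type motif: caagaaggcgatTTTCGCGcgctttgtcgc
This motif was in 2 of the 8 windows, those of Rbl1 and Cdkn2c, and in 0.849% of all windows. The other E2F-type letters searched, TTTGGCG and TTTGCGC, were in 0 of the 8 windows and in 1.56% and 1.62% of all. Of the remaining motifs, TTTGAA (the CHR element of cell cycle genes) was in that of Rbl2 alone and in 17.9% of all, and the E-box CACGTG in that of Cdkn2c alone and in 7.15% of all. The E-box CAGATG, of the kind that neurogenic basic helix-loop-helix factors bind, was in 0 of the 8 and in 17.2% of all.

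Tob1 and Btg1 are members of a single family. Tob1 had 9.07, 8.91, 8.94 and 8.81 in controls and 8.69, 8.65 and 8.07 in knockdown samples, apart by 0.12, with replicate 3 well below the other knockdown arrays. The difference was -0.46 (SE 0.17, 95% interval -0.86 to -0.06, adjusted p = 0.825 by limma, exact permutation p = 0.0286), and -0.26 without knockdown replicate 3. Btg1 had 9.42, 9.13, 9.22 and 9.38 in controls and 9.48, 9.85 and 8.70 in knockdown samples. Its knockdown arrays thus lay on both sides of the controls, with an SD of 0.587 against 0.137. The difference of Btg1 was 0.06 (SE 0.26, 95% interval -0.55 to 0.66), 0.38 when knockdown replicate 3 was left out, -0.20 when replicate 2 was, and -0.05 with array medians set equal.

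Within arrays the log2 ratio of Tob1 to Btg1 was -0.35, -0.22, -0.28 and -0.58 in controls and -0.79, -1.21 and -0.63 in knockdown samples. The lowest control, replicate 4, was just above the highest knockdown array, replicate 3. The ratio differed by -0.52 (exact permutation p = 0.0286, adjusted p = 0.0714 over the 5 pairs) and did not pass. Like that of Rb1 to Rbl1, this ratio could not have passed on its own at the smallest possible p. The ratio differed by -0.53 and -0.52 after quantile and cyclic loess normalization, with adjusted p of 0.143 and 0.286. These adjusted values also depend on the p of the other pairs.

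Among the 8 windows, those of Tob1 and Btg1 alone hold a TATA box, a motif present in 13.6% of all windows. They are shown as the start regions of family members whose values differed. For Tob1 these are the 30 bases chr11:94211395-94211424 on the plus strand, with TATAAA at position -47. The 250 bases before the start of Btg1, chr10:96616751-96617000 on the plus strand, hold TATAAA at position -26, GC boxes at -131 and -68, a CCAAT box at -80 and a forkhead motif at -204, each in capitals.
Tob1 TATA box: cggggaggaggcTATAAAacgagaggcggg
Btg1: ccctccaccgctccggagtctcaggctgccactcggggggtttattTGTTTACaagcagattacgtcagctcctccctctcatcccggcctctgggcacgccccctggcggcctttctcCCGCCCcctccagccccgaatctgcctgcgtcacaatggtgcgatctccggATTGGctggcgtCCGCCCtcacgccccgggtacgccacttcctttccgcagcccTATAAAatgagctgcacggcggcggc
The matches are descriptions of these letters and not sites of binding.

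Scaling changed the size of the differences. With array medians set equal all 9 were lower (median -0.66, where the median of all genes became -0.11), after a further quantile normalization 8 were lower (median -0.52) and after cyclic loess normalization 8 were lower (median -0.47). Genes with a mean level over 8 had medians of -0.27, -0.06 and -0.03 under these scalings. Cdkn2d stood at -0.92, -0.75 and -0.71. The groups stayed apart for Cdkn2d and Tob1 under all 3 scalings, and for Cdkn1b and Rb1 under all but cyclic loess. With equal array medians 4 of the 9 were apart (9.87% of all genes), after a further quantile normalization 4 (5.48%) and after cyclic loess 2 (3.89%).

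**Figure D3:**
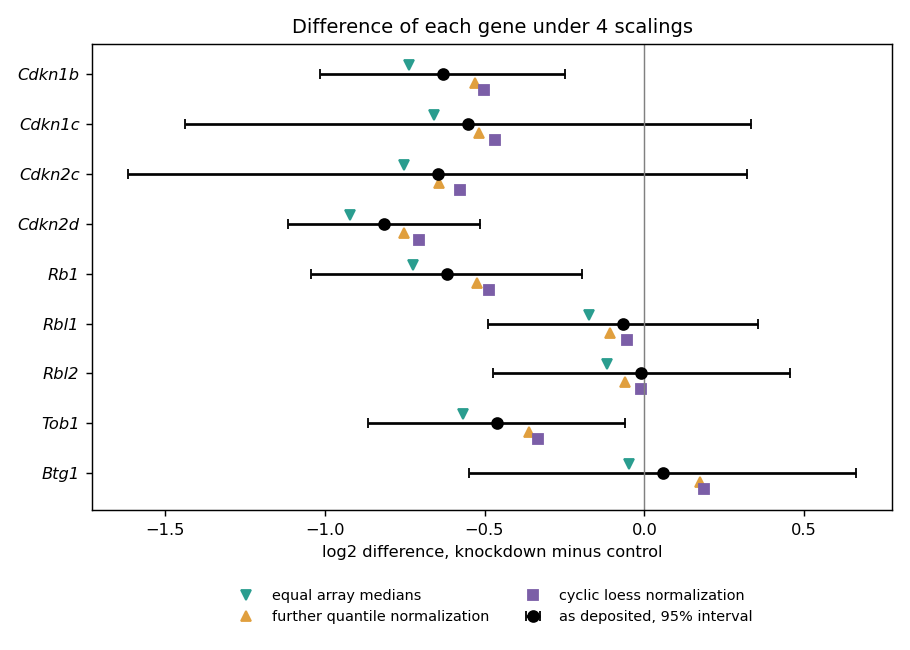
Log2 difference, knockdown minus control (x axis), for each of the 9 measured genes. Black points and bars are the values as deposited with limma's 95% interval, and coloured symbols the same difference under 3 other scalings; Cdkn2d lies between -0.92 and -0.71 under all 4.

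The count of separated genes was also taken without arrays that were highest in their group for endothelial, microglial, interneuron or choroid plexus markers. Knockdown replicate 3 was kept in both of these runs. It was the highest knockdown array for erythroid (8.62) and Cajal-Retzius (4.92) markers. Without control replicate 4 and knockdown replicate 2, 5 of the 9 genes had all knockdown arrays below all controls (15.0% of all genes did, with fewer arrays), and Cdkn2d, Cdkn1b, Rb1 and Tob1 differed by -0.93, -0.75, -0.71 and -0.59. Without control replicate 4 and knockdown replicate 1, 4 of the 9 were apart (9.86% of all genes), and the same genes differed by -0.78, -0.49, -0.51 and -0.61.

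A list of cyclins, CDKs and related proteins lay near the median of all genes. Of its 15 genes, 10 were lower and 5 higher, with a median of -0.05. Besides partners of the inhibitors it holds Pcna and the CDK-activating kinase (Cdk7, Ccnh and Mnat1). For this list and those below, the shares to compare are 50.2% lower over all genes, 62.0% at mean levels of 6 to 8 and 76.5% over 8. At an unadjusted p under 0.05, 3.61% of all genes were lower and 2.2% higher. The lower share at that p was 7.33% at mean levels of 6 to 8 and 10.4% over 8. Cdk4, the main target of INK4 proteins, differed by -0.30 (SE 0.16), Cdk6 by -0.05 (SE 0.18) and Cdk2, a target of Cip/Kip proteins, by 0.37 (SE 0.24). The D-type cyclins Ccnd1 and Ccnd2 differed by 0.24 (SE 0.24) and 0.05 (SE 0.25). Cdk1, the mitotic kinase, had the smallest p of the list (-0.95, SE 0.33), and Cdk7, of the CDK-activating kinase, differed by -0.81 (SE 0.40). By limma 0 of these 15 passed over all genes, and 1, Cdk1, had an unadjusted p under 0.05. The list's median was 0.05 after cyclic loess normalization.

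A list of E2F factors and chromatin partners of pocket proteins, which also holds Rb1cc1, was lower in 14 of 16 cases (median -0.19). Over all genes, 62.0% of those with mean levels of 6 to 8 and 76.5% of those over 8 were lower. E2f8 and E2f7, atypical E2F repressors, differed by -0.80 (SE 0.36) and -0.39 (SE 0.27), and Hdac1, a histone deacetylase recruited by pocket proteins, by -0.30 (SE 0.16). By limma 0 passed and 0 had an unadjusted p under 0.05. Without knockdown replicate 3 the lower count was 8 of 16. The DREAM and MuvB list covers the MuvB core, the E2F and DP factors that join it with Rbl1 or Rbl2 to silence cell cycle genes, the kinase Dyrk1a, and Mybl2 and Foxm1, which join MuvB to activate genes. Its 12 genes had 8 lower and 4 higher, with a median of -0.12, and 5 lower without knockdown replicate 3. Lin52, a MuvB subunit, differed by 0.58 (SE 0.20), from 6.04, 6.17, 5.77 and 5.34 in controls to 6.35, 6.47 and 6.39 in knockdown samples, and was the 1 gene of that list with an unadjusted p under 0.05; none of the 12 passed over all genes by limma. Rbbp4, another subunit, differed by -0.31 (SE 0.16).

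Regulators of inhibitor stability, mostly ubiquitin ligase subunits, were lower in 15 of 18 cases, with a median of -0.24. The share of lower genes was 62.0% among all genes with mean levels of 6 to 8 and 76.5% among those over 8. Fbxl12, an F-box protein, differed by -0.44 (SE 0.14) with groups that did not overlap, and was the 1 gene with an unadjusted p under 0.05. Skp2, which targets p27 for degradation, differed by -0.36 (SE 0.28), and its cofactor Cks1b by -0.26 (SE 0.30). Of 13 genes of the CCR4-NOT deadenylase and its partners, 9 were lower (median -0.06). Cnot3 differed by -0.45 (SE 0.14) and Cnot4 by -0.66 (SE 0.24), the 2 of them with an unadjusted p under 0.05, while the catalytic subunits that Tob and Btg proteins bind, Cnot7 and Cnot8, differed by -0.02 (SE 0.19) and 0.13 (SE 0.16). In neither list did a gene pass over all genes by limma. The median of the CCR4-NOT list was 0.07 after cyclic loess and 0.04 after a further quantile normalization.

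**Figure D4:**
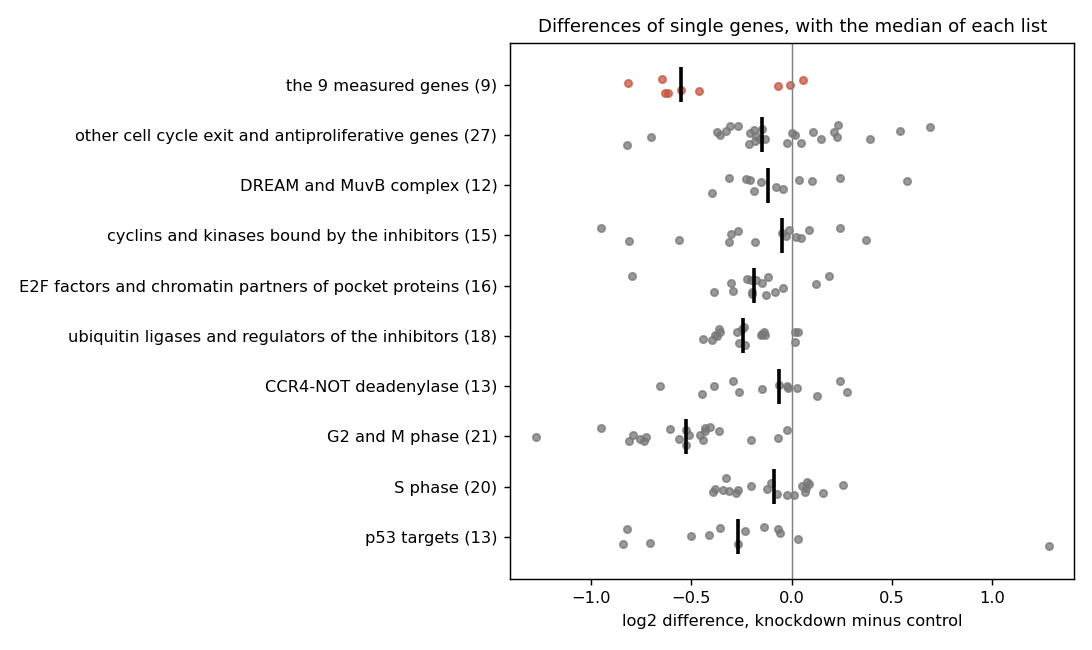
Log2 difference, knockdown minus control (x axis), of single genes in the 9 measured genes (red) and in each list of related genes (grey, number of genes in brackets); vertical bars are medians. The median of the 9 genes is -0.55 and that of the 21 G2 and M phase genes -0.53, and the other medians lie between -0.27 and -0.05.

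Other genes of cell cycle exit were mixed, with 16 of 27 lower, 11 higher and a median of -0.15. Zbtb18, a transcriptional repressor needed for cortical neuron development, differed by -0.70 (SE 0.17), from 9.92, 9.76, 10.03 and 9.96 to 9.13, 8.94 and 9.58. Trp53inp1, a p53-induced nuclear protein, differed by -0.82 (SE 0.22). For both the groups did not overlap, and they were the 2 genes of this list with an unadjusted p under 0.05, none passing over all genes by limma. For relatives of the 9 genes the groups overlapped. Tob2 differed by -0.19 (SE 0.18), Btg2, a marker of neurogenic divisions, by -0.18 (SE 0.21), and the INK4 genes Cdkn2a and Cdkn2b by 0.05 (SE 0.18) and 0.23 (SE 0.18). Cdkn2a and Cdkn2b had control means of 3.56 and 4.09, below the median of every array (4.40 to 4.61), so little can be read from their differences.

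The cycling machinery itself was uneven between arrays. All 21 measured genes of G2 and M phase were lower on average, with a median of -0.53, which moved to -0.21 when knockdown replicate 1 was left out and to -0.88 when replicate 2 was. Of them 0 passed over all genes by limma, and Cdk1 alone had an unadjusted p under 0.05. Among all genes with mean levels over 8, 76.5% were lower, with a median of -0.16, and at levels of 6 to 8 62.0% were. Genes of S phase had 12 of 20 lower and a median of -0.09, with Slbp, the histone mRNA binding protein, at -0.39 (SE 0.16) and Mcm5, of the replicative helicase, at -0.38 (SE 0.18). By limma none of the 20 passed, and Slbp alone had an unadjusted p under 0.05.

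**Figure D5:**
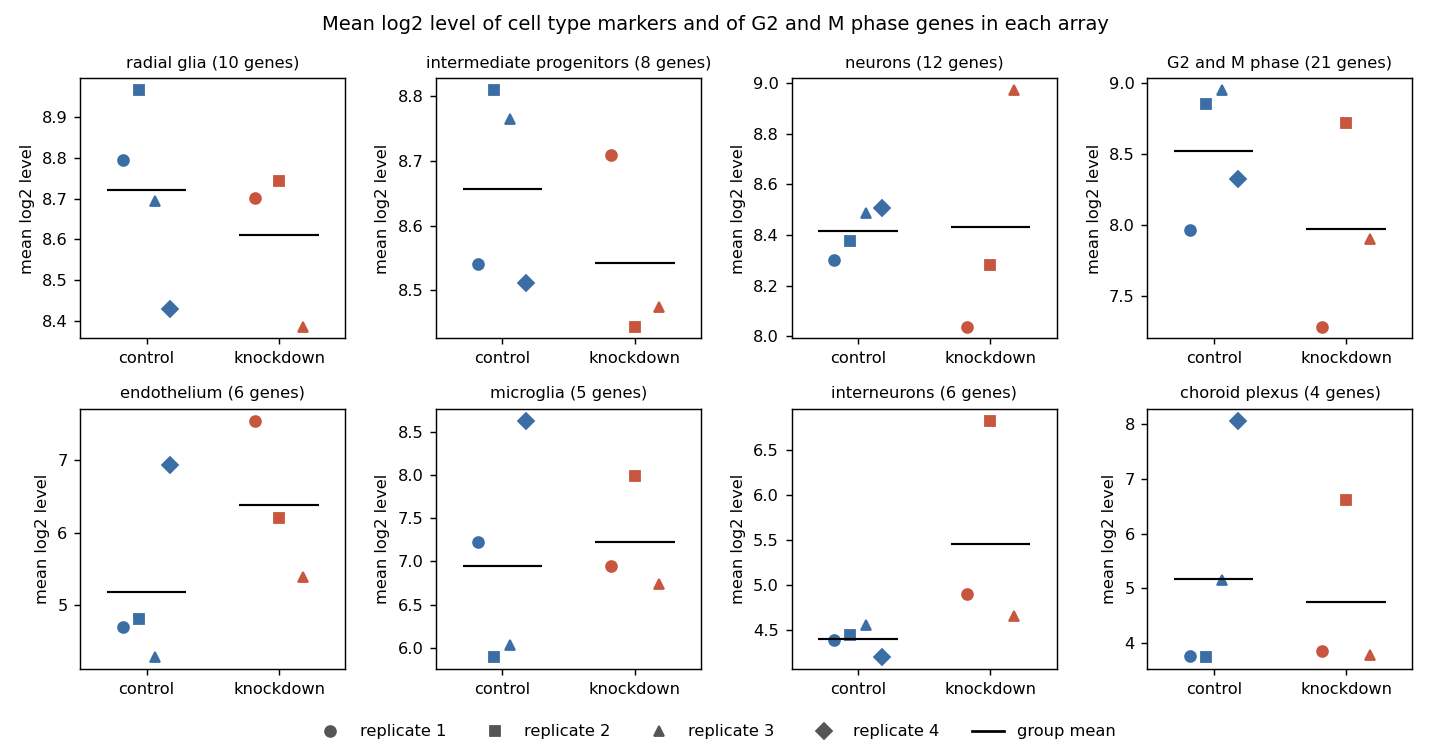
Mean log2 level (y axis, own scale per panel) of marker lists for 7 cell types and of 21 G2 and M phase genes in each array, by group; symbols give the replicate number and bars the group mean. Endothelial markers reach 7.53 in knockdown replicate 1 and 6.92 in control replicate 4, and interneuron markers 6.82 in knockdown replicate 2.

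Cell type markers were measured in the same arrays. Markers of radial glia had 6 of 10 lower (8.43 to 8.97 in controls, 8.39 to 8.74 in knockdown samples), those of intermediate progenitors 6 of 8 lower (8.51 to 8.81 and 8.44 to 8.71), and those of neurons 6 of 12 lower (8.30 to 8.51 and 8.04 to 8.97). The neuronal mean was 8.04, 8.28 and 8.97 in knockdown replicates 1 to 3, and Cdkn2d read 6.73, 7.02 and 6.80 in those arrays. Neuronal markers went both ways. Neurod6, Neurod2 and Dcx had all knockdown arrays below all controls, with differences of -0.71 (SE 0.13), -0.59 (SE 0.16) and -0.52 (SE 0.19), whereas Syt1 had all knockdown arrays above all controls (1.12, SE 0.31). These 4 had the smallest p of the list, 5 of the other 8 were higher on average, and none of the 12 passed over all genes by limma. Btg1 had its highest value in knockdown replicate 2, as had the interneuron and choroid plexus markers among the knockdown arrays. The part of these cell types in the values of the 9 genes was not tested.

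Genes whose levels ran most like a member's over the 7 arrays were sought among the 9969 genes brighter than the median gene. For Cdkn2d they were the histone gene H4c3 (Pearson r = 0.984), the kinetochore gene Mis12 (0.984) and Ap3s1 (0.983). For Cdkn1b they were Frmd5 (0.976), Bod1 (0.961) and Synrg (0.959), and for Rb1 they were Mpst (0.983), Ciao2b (0.983) and Ola1 (0.968). Btg1, the member that was higher, ran most like Ube2f (0.977), Sqstm1 (0.976) and Plk3 (0.975). These correlations describe 7 arrays in 2 groups, share each array's overall scaling and are the highest of many, so they carry no test.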

How the data were processed

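The authors deposited log2 levels. Per the submitters' processing notes they used RMA, with Affymetrix Expression Console 1.2 as the software; RMA makes the arrays' distributions alike and shrinks the differences of dim genes. The array's genome build was not given in the sources used here. Of 35556 probe sets, 21789 had 1 gene symbol, and the one with the highest mean represented each of 19938 genes. Knockdown (n = 3) was compared with control (n = 4) by limma 3.58.1 in R 4.3.3 without covariates (5 residual and 2.36 prior degrees of freedom, two-sided), with Benjamini-Hochberg adjustment over all genes at 0.05; SE and intervals are limma's. Ratios within arrays were tested by exact two-sided permutation over 35 splits, adjusted over 5 pairs; 2 further pairs planned with Cdkn1a were not analysed here. The code was tested on simulated data. The number of arrays limits precision. The 10 genes and the related lists were chosen with earlier results of these data known. From each list up to 4 genes with the smallest p were named, with partners of the members; for 4 members the 3 genes of highest correlation were named. Alternatives were other scalings, variance models, filters on dim genes, probe set rules, a replicate block, arrays left out and a shorter promoter window. Promoters came from RefSeq, GRCm38.p6, matched by symbol and gene identifier.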

Additional observations from a re-analysis of the deposited data

Results flagged for a closer look

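The log2 ratio of Cdkn2d to Cdkn2c in control replicate 2 was 0.06, far from the other 3 controls (0.93, 0.94 and 0.82). This was the only control value, among the 9 genes, Trnp1 and the 5 ratios, whose gap to the nearest array took more of the group's range (0.858) than Dixon's 95% critical value for 4 samples (0.829). Chance gives such a value in about 1 of 20 groups.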

How the results depend on the processing

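No gene, member or not, passed under any alternative run. The count of members with all knockdown arrays below all controls was 2 after cyclic loess normalization (3.89% of all genes) and 4 to 5 with single arrays left out, where the share of all genes ran from 4.16% to 11.1%, against 3.07% with all arrays, and the number of lower members ran from 7 to 9. The replicate block left the median member difference at -0.57 and changed no call. Same-numbered arrays deviated from their group means with correlations of 0.03, -0.05 and 0.07, and 0 of 3 knockdown arrays were closest to their own number. No pairing by number was seen, but few arrays were compared and the labels do not say what the numbers mark. Small differences changed sign. Btg1 was -0.049 with equal array medians, -0.17 without control replicate 4 and knockdown replicate 2 (an alternative chosen after seeing the data), and -0.20 to 0.38 with single arrays left out. Rbl2 was 0.061 with array weights, 0.016 without control replicate 4 and knockdown replicate 2, -0.16 without control replicate 4 and knockdown replicate 1 (also chosen after seeing the data), and -0.11 to 0.15 with single arrays left out, and Rbl1 was -0.21 to 0.036. The ratio of Cdkn1b to Cdkn1c was 0.018 with the mean over probe sets and -0.39 to 0.12 with single arrays left out, and that of Cdkn2d to Cdkn2c -0.38 to 0.19. The cause was not tested. With 1 array fewer the exact test of a ratio cannot pass, so it says nothing of stability.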

Other observations

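Targets of p53, the factor that induces Cdkn1a after DNA damage, were lower in 11 of 13 measured cases, with a median of -0.27. Of all genes 50.2% were lower, and at mean levels of 6 to 8 62.0% were. By limma 0 of the 13 passed over all genes, and 3 had an unadjusted p under 0.05, of which 2 were lower. Plk2, a polo-like kinase, was the exception in size, with 6.54, 7.45, 7.39 and 7.77 in controls and 8.87, 8.66 and 8.19 in knockdown samples, a difference of 1.28 (SE 0.30) with groups that did not overlap. Zmat3, a zinc finger RNA binding protein, had 7.11, 7.13, 6.71 and 6.49 in controls and 6.29, 6.17 and 6.01 in knockdown samples, a difference of -0.71 (SE 0.18). Across the alternatives run, the median of this list stayed between -0.41 and -0.11.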
